A study of Homo sapiens with 6 samples.

Results

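Human chromosome 19 carries the densest collection of zinc finger genes in the genome, and 231 of the 36651 genes in the expression table belonged to it. Members were the protein-coding genes of that chromosome whose symbol is ZNF followed by a number and at most 1 further letter. No expression value entered this rule. RNA was sequenced in the epithelial colorectal carcinoma line HCT116, of human origin, in 3 samples labelled siMTA1 and 3 control samples. All 6 samples come from the same line and no other treatment is named. MTA1 belongs to NuRD, which slides nucleosomes along DNA and deacetylates histones. The descriptions name the treated samples siMTA and their titles CrMTA1, so the labels leave unclear whether RNA interference or genome editing of a selected line was used. Descriptions read control, and titles wild type, for the other samples, with no word on what they received. Nothing states that replicates were separate cultures. The p-values then reflect the spread among these samples alone, and that spread may be technical.

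Most proteins of this family join an array of C2H2 zinc fingers, each of which grips a few bases of DNA, to a KRAB domain at the N terminus. The KRAB domain recruits TRIM28, a scaffold that brings the histone methyltransferase SETDB1, the HP1 proteins encoded by CBX1, CBX3 and CBX5, and the NuRD ATPase CHD3 to the bound site. Many KRAB zinc finger proteins bind and silence transposable elements, and their genes arose by tandem duplication, which left them in clusters along the chromosome. A minority of the members carry a SCAN domain, or fingers alone.

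MTA1 stood at 44.55, 43.98 and 47.97 FPKM in the siMTA1 libraries, against 65.9, 67.61 and 66.74 FPKM in the control libraries. FPKM is the number of fragments of a gene, scaled to its length and to the fragments of the library. MTA1 was lower in all 3 siMTA1 libraries, with 68.2% of the control level left, a log2 difference of −0.54 (SE 0.06, limma adjusted p = 0.000376) and an exact two-sided permutation p of 0.1, the smallest that 3 against 3 libraries allow. The implied depth was 57200000 to 66700000 fragments in siMTA1 libraries and 42900000 to 65400000 fragments in control libraries, with control library 1 the shallowest. Of the epithelial markers EPCAM, CDH1, KRT8, KRT18 and KRT19, all 5 were tested and CDH1 rose while KRT8 and KRT18 fell. The threshold was a limma adjusted p under 0.05, which 18.2% of all 12141 tested genes passed. Of 8 markers of fibroblasts, leukocytes, endothelium and hepatocytes, COL1A1 reached 2.65 FPKM and the others stayed under 0.5 FPKM, with CD3E at 0 in 4 of 6 libraries. The summed level of these 8 markers was 3.17 to 3.65 FPKM in siMTA1 libraries and 2.58 to 2.8 FPKM in control libraries, and their part in the results below was not tested.

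Most members were expressed at low levels. Of the 231, 20 were listed at 0 in all 6 libraries, 67 had a mean above 0 and under 0.1 FPKM, 66 had a mean from 0.1 to 1 FPKM, 70 from 1 to 5 FPKM and 8 at 5 FPKM or more. The median over the 231 members of the mean level was 0.42 FPKM. The 255 ZNF genes on other chromosomes had a median of 1.97 FPKM and the 1108 other protein-coding genes of chromosome 19 a median of 3.41 FPKM. A mean of at least 1 FPKM was required for the main test. It was met by 78 members, or 33.8%, against 67.1% of the ZNF genes elsewhere and 61.6% of the other coding genes of chromosome 19. The test was limma on log2(FPKM + 1), with p-values adjusted over all 12141 genes that met the same minimum.

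The summed FPKM of all members was 337, 334.9 and 318.7 in the siMTA1 libraries, against 325.2, 321 and 324 in the control libraries. The groups overlapped. A single gene weighed heavily in this sum. ZNF146, which encodes a protein made of fingers with no other domain, had 48.47, 47.9 and 39.85 FPKM in the siMTA1 libraries and 50.49, 45.32 and 44.67 FPKM in the control libraries. Its groups overlapped, and its log2 difference was −0.05 (SE 0.08, limma adjusted p = 0.720).

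The next most highly expressed members were ZNF428, ZNF580, ZNF787, ZNF317 and ZNF121. ZNF428 had 22.91, 26.33 and 23.12 FPKM with siMTA1 and 23.64, 23.65 and 22.74 FPKM in control. ZNF580 had 10.94, 12.7 and 12.21 FPKM with siMTA1 and 12.2, 12.71 and 13.84 FPKM in control. In both genes the values of the groups interleaved. ZNF787 ranged from 11.71 to 12.69 FPKM with siMTA1 and from 11.45 to 12.99 FPKM in control. ZNF317 ranged from 10.05 to 12.02 FPKM with siMTA1 and from 9.49 to 10.24 FPKM in control. ZNF121, whose product is known as a partner of MYC, ranged from 8.45 to 10.97 FPKM with siMTA1 and from 8.02 to 9.72 FPKM in control. Groups overlapped in all 3, and the limma adjusted p of these 5 genes lay between 0.326 and 0.811. Of the 6 most highly expressed members, 5 had no recognisable KRAB A box, the exception being ZNF317.

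Of the 78 tested members, 4 rose and 3 fell with siMTA1 at a limma adjusted p under 0.05, together 8.97%. Over all 12141 tested genes 18.2% passed, 6.13% higher and 12.1% lower. The members that rose were ZNF160, ZNF211, ZNF607 and ZNF558, and those that fell were ZNF552, ZNF865 and ZNF587B. Fewer expressing cells and less RNA in each cell cannot be told apart in such bulk samples. The share of calls depended on level in all genes. Among genes with a mean from 1 to 5 FPKM, 7 of the 70 members passed (10%), as did 8.77% of the 114 ZNF genes elsewhere and 15.1% of all 5054 genes. The median log2 difference was 0.03 over the 78 members, −0.02 over the 171 tested ZNF genes elsewhere, −0.02 over 683 other tested coding genes of chromosome 19 and −0.05 over all tested genes. The split of calls depended on the scaling, with 9 members higher and 3 lower under median centring and 7 higher and 3 lower under quantile normalization. The shares of all tested genes called under these scalings are not given here. Without siMTA1 library 2 there were 4 calls, 2 higher and 2 lower, and without control library 2 there were also 4, 1 higher and 3 lower. Without siMTA1 library 1 there were 2 higher and 3 lower.

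**Figure D1:**
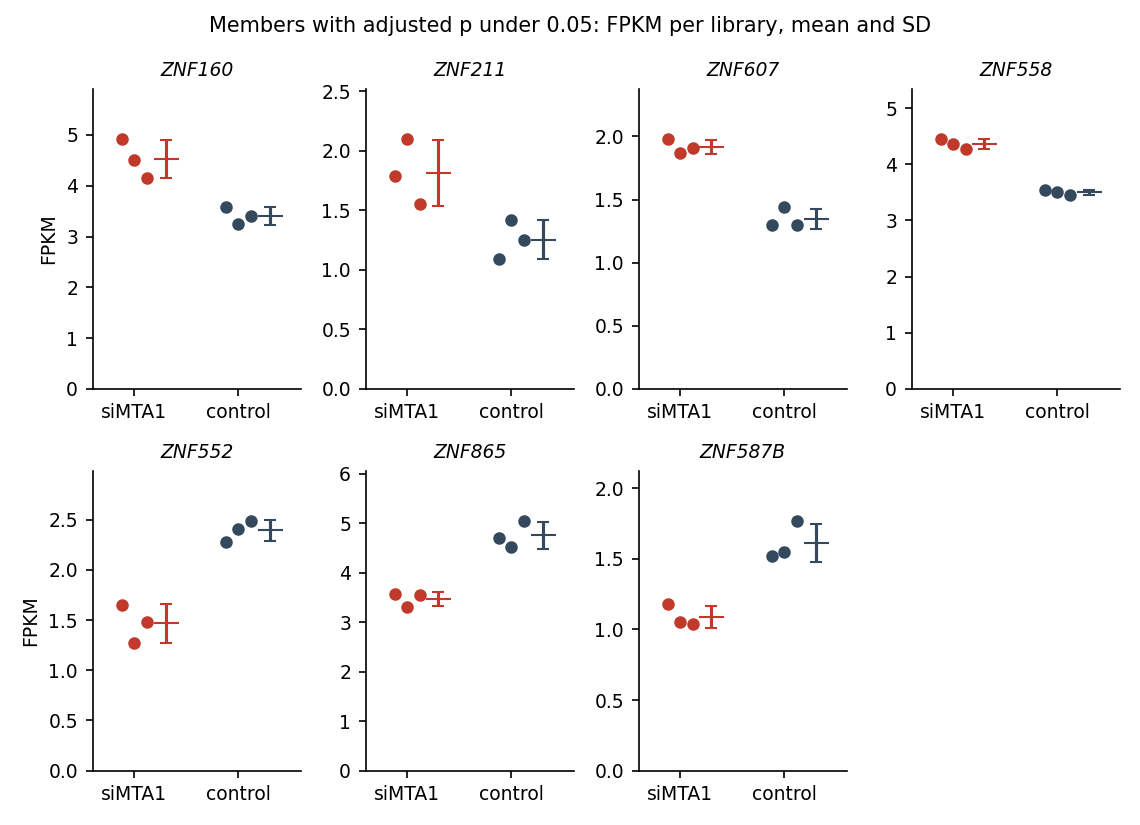
FPKM in each library (points) with the mean and SD of 3 libraries (bars beside them) for the 7 members with an adjusted p under 0.05, siMTA1 in red and control in dark blue; each panel starts at 0. In all 7 the points of the groups do not overlap, and the highest value is 5.05 FPKM.

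ZNF160 encodes a KRAB protein reported to repress transcription of the receptor gene TLR4 in intestinal epithelial cells. The gene (ENSG00000170949.17) lies at chr19:53066606-53103436 on the minus strand of GRCh38. It had 4.92, 4.5 and 4.16 FPKM in the siMTA1 libraries, against 3.59, 3.24 and 3.4 FPKM in the control libraries. Every siMTA1 value lay above every control value, and the means were 4.53 ± 0.381 and 3.41 ± 0.175 FPKM (SD, n = 3 each), a ratio of 1.33. The log2 difference was 0.32 (SE 0.07, limma adjusted p = 0.0137). The call ended without control library 2 (adjusted p = 0.0605) and without a filter on low values (0.103), and held in 18 of 20 alternatives, with adjusted p from 0.00108 to 0.103.

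ZNF558 encodes a KRAB protein with 9 fingers, which in human neural progenitors is known to repress the mitophagy gene SPATA18. The gene (ENSG00000167785.8) lies at chr19:8806170-8832328 on the minus strand. Its levels were 4.45, 4.36 and 4.27 FPKM in the siMTA1 libraries and 3.54, 3.51 and 3.45 FPKM in the control libraries. The groups were far apart next to their own spread, with means of 4.36 ± 0.090 and 3.5 ± 0.0458 FPKM (SD, n = 3 each). The log2 difference was 0.25 (SE 0.06, limma adjusted p = 0.0162). The adjusted p was 0.0523 without siMTA1 library 1, 0.0507 without siMTA1 library 2 and 0.0623 without control library 2, which ended the call. It held in the other 17 of 20 alternatives, and adjusted p over all 20 ran from 0.00297 to 0.0623.

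ZNF607 encodes a KRAB protein with 18 fingers. The gene (ENSG00000198182.12) lies at chr19:37696363-37719790 on the minus strand, in a cluster where few members were expressed. It had 1.98, 1.87 and 1.91 FPKM with siMTA1, against 1.3, 1.44 and 1.3 FPKM in control. All siMTA1 values lay above all control values, and the ratio of the means was 1.43. The log2 difference was 0.32 (SE 0.07, limma adjusted p = 0.0118), and the call held in all 20 alternatives, with adjusted p from 0.00502 to 0.0437. An overlapping gene on the same strand, AC093227.2, held 12% of the 75-base stretches of its transcripts, so fragments of the pair cannot be fully told apart.

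ZNF211, a KRAB member with 11 fingers (ENSG00000121417.13, chr19:57630395-57642779, plus strand), was closest to the threshold. It had 1.79, 2.1 and 1.55 FPKM with siMTA1 and 1.09, 1.42 and 1.25 FPKM in control. The lowest siMTA1 value exceeded the highest control value by a small margin. The log2 difference was 0.32 (SE 0.09, limma adjusted p = 0.0376). The call ended in 5 of 6 fits that left out a library, with adjusted p of 0.0804 without siMTA1 library 1, 0.128 without siMTA1 library 2, 0.0963 without control library 1, 0.0525 without control library 2 and 0.0755 without control library 3. It also ended with no filter (0.226), with a minimum of 0.1 FPKM (0.0638) and with that minimum and a pseudocount of 0.1 (0.0626), which left 12 of 20 alternatives with the call. Adjusted p over all 20 ran from 0.0252 to 0.226.

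ZNF552 and ZNF587B, which both fell, are neighbours. ZNF552, a KRAB member with 6 fingers (ENSG00000178935.5), lies at chr19:57803841-57814913 on the minus strand, and ZNF587B, a KRAB member with 15 fingers (ENSG00000269343.6), at chr19:57819741-57846238 on the plus strand. ZNF552 had 1.65, 1.27 and 1.48 FPKM with siMTA1, against 2.28, 2.41 and 2.49 FPKM in control. The groups were well apart, with a log2 difference of −0.46 (SE 0.08, limma adjusted p = 0.00429), the largest fall among the tested members. ZNF587B had 1.18, 1.05 and 1.04 FPKM with siMTA1, against 1.52, 1.55 and 1.77 FPKM in control. Again no value of one group reached the other, and the log2 difference was −0.32 (SE 0.07, limma adjusted p = 0.0157).

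The next member along, ZNF587, had 1.18, 1.31 and 1.33 FPKM with siMTA1 and 1.3, 1.34 and 1.17 FPKM in control, with overlapping groups and a log2 difference of 0.00 (SE 0.07, limma adjusted p = 0.985). It was named after its values were seen, as the nearest tested neighbour. Without a filter on low values the ZNF552 call ended (adjusted p = 0.0621), with adjusted p from 0.000649 to 0.0621 over 20 alternatives. The ZNF587B call ended with no filter (0.0842) and without siMTA1 library 2 (0.0560), with adjusted p from 0.00513 to 0.0842 over 20 alternatives. Of the transcripts of ZNF552, 9.83% of the 75-base stretches recurred in other genes, mostly ZNF814. For ZNF587B the share was 19.3%, mostly in AC010522.1, which overlaps it on the same strand as does ZNF586. The authors' counting could have split such fragments.

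ZNF865 was the only called member without a recognisable KRAB A box. The gene (ENSG00000261221.3) lies at chr19:55605405-55617269 on the plus strand and encodes 20 fingers, in a longest transcript of 71.1% GC. It had 3.57, 3.3 and 3.54 FPKM with siMTA1, against 4.71, 4.51 and 5.05 FPKM in control. The groups did not overlap, and the siMTA1 mean of 3.47 ± 0.148 FPKM was 0.73 of the control mean of 4.76 ± 0.273 FPKM (SD, n = 3 each). The log2 difference was −0.36 (SE 0.06, limma adjusted p = 0.00600), and the call held in all 20 alternatives, with adjusted p from 0.00197 to 0.0467.

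The members nearest to the threshold on its other side were ZNF266 and ZNF320. ZNF266 had 1.53, 1.26 and 1.59 FPKM with siMTA1 and 1.1, 1.01 and 1.15 FPKM in control. ZNF320 had 2.33, 2.32 and 2.22 FPKM with siMTA1 and 1.93, 1.95 and 1.74 FPKM in control. In both, every siMTA1 value lay above every control value. The log2 differences were 0.24 (SE 0.08, limma adjusted p = 0.0601) for ZNF266 and 0.20 (SE 0.06, limma adjusted p = 0.0625) for ZNF320, and ZNF266 passed in 7 alternatives and ZNF320 in 6. The largest called adjusted p values were those of ZNF558 and ZNF211.

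Sequences upstream of 3 called members are shown because genes that moved in opposite directions can be set side by side, ZNF607 and ZNF160 higher and ZNF587B lower. Each window is the 250 bases before a RefSeq transcription start on GRCh38.p14, read 5′ to 3′ on the strand of the gene, and for a gene with several starts it is the start nearest to the 5′ end in GENCODE 29. The windows are chr19:8832305-8832554 for ZNF558, chr19:37719762-37720011 for ZNF607 and chr19:53103423-53103672 for ZNF160, all on the minus strand, and chr19:55605397-55605646 for ZNF865 and chr19:57830049-57830298 for ZNF587B on the plus strand. All 5 starts lie inside the gene as GENCODE annotates it, by 24, 29, 14, 242 and 10558 bases in the order given. Annotated UTRs cover 149 bases of the ZNF558 window, most of them of MBD3L1 on the other strand, and 242 bases of the ZNF865 window, and these windows are not printed. Capitals mark matches, on either strand, to CCGGAAG (an ETS-type core), GGGCGG (a GC box), CCAAT and TATAAA. In the ZNF865 window a match of CCGGAAG overlaps one of GGGCGG. No entry was matched for ZNF552 and ZNF211.
ZNF607: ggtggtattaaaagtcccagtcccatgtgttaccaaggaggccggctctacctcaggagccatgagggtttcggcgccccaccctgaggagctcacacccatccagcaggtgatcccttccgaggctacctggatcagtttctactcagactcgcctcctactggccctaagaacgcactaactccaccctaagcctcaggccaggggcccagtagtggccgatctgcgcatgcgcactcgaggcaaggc
ZNF160: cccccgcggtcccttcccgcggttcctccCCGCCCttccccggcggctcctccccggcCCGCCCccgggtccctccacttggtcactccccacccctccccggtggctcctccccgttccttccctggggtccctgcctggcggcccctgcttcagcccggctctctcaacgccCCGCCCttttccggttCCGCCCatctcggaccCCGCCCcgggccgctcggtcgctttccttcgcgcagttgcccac
ZNF587B: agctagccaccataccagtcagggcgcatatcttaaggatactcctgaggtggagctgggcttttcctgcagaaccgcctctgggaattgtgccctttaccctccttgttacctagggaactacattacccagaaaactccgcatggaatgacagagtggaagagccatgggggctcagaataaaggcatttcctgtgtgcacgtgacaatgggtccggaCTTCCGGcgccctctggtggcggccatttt

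GGGCGG matched 2 times in the window of ZNF558, 5 times in that of ZNF160 and 4 times in that of ZNF865. CCGGAAG matched 2 times in the window of ZNF558 and 1 time each in those of ZNF865 and ZNF587B. Neither motif separated the members that rose from those that fell. CpG dinucleotides numbered 26, 10 and 26 in ZNF558, ZNF607 and ZNF160, and 32 and 8 in ZNF865 and ZNF587B. Over 246 windows of the same length from 201 members, 26.0% held CCGGAAG, against 24.3% of 276 windows of ZNF genes elsewhere and 8.52% of all 35116 windows. GGGCGG was found in 62.2% of the members' windows, 54.3% of those of ZNF genes elsewhere and 42.6% of all. CCAAT was found in 46.3%, 38.0% and 32.0% of the same sets, and TATAAA in 2.85%, 5.07% and 10.7%. The upstream windows of the members were thus richer in ETS-type cores and poorer in TATA boxes than all windows, and in this they were close to ZNF genes on other chromosomes. All windows were not limited to protein-coding genes, as the members are. The median number of CpG dinucleotides was 16 in the members' windows and 11 in all windows. The part of either in these shares was not tested. Such matches are descriptions of letters and not of binding.

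Members with a KRAB A box tended to lie above 0 and the others below it. Of all 12141 tested genes 4645 lay above 0, with a median of −0.05, so the typical gene also lay below 0. The A box was searched as a pattern of residues in the proteins of GENCODE 29 and found in 191 of 230 members with an annotated protein. It misses divergent boxes, such as those of ZNF675 and ZNF473, and ZNF788 had no protein to search. The median number of C2H2 fingers was 13 with the A box and 9 without, and the highest was 31. Of the 191 members with the A box 54 were tested (28.3%), and of the 39 without it 24 (61.5%). The median of the mean level was 0.315 FPKM with the A box and 1.56 FPKM without.

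Among the 54 tested members with the A box, 41 had a log2 difference above 0 and the median was 0.08, with 4 higher and 2 lower past the threshold and 11 higher and 3 lower at an unadjusted p under 0.05. Among the 24 without it, 6 lay above 0 and the median was −0.08. There, limma called 1 lower and 0 higher, with 4 lower and 0 higher at an unadjusted p under 0.05. The shares called, 11.1% and 4.17%, were both below the 18.2% of all tested genes, of which 1402 were higher and 2853 lower at an unadjusted p under 0.05. The same split among ZNF genes on other chromosomes gave medians of −0.01 for 47 genes with the A box and −0.04 for 124 without. The gap between the medians of the members was 0.15, and it lay between 0.0373 and 0.214 over all alternatives, being smallest without a filter. The median with the A box stayed above 0 and that without it below 0 under all alternatives. Some alternatives could not move these medians, because they leave every log2 difference as it was. These were the fits without an intensity trend, with a robust variance estimate and with the replicate number as a block. No test was made of this gap.

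Base composition moved with the A box. The median GC of the longest transcript was 42.8% in tested members with the A box and 61.1% in those without, and the median exon length was 5048 and 3761 bases. Across the 78 tested members the log2 difference had a Spearman rho of −0.39 with GC and 0.34 with exon length, measured in the same 6 libraries, against 0.09 and 0.10 across 12076 tested genes. The gap was 0.17 after a trend on length and GC over all tested genes was removed. That trend follows all genes, whose rho with GC had the opposite sign. Its removal therefore cannot decide on a relation with GC among the members alone. Within members of up to 50% GC, the median was 0.08 for 49 with the A box and −0.04 for 6 without. Above 50% GC it was 0.06 for 5 with the A box and −0.11 for 18 without.

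**Figure D2:**
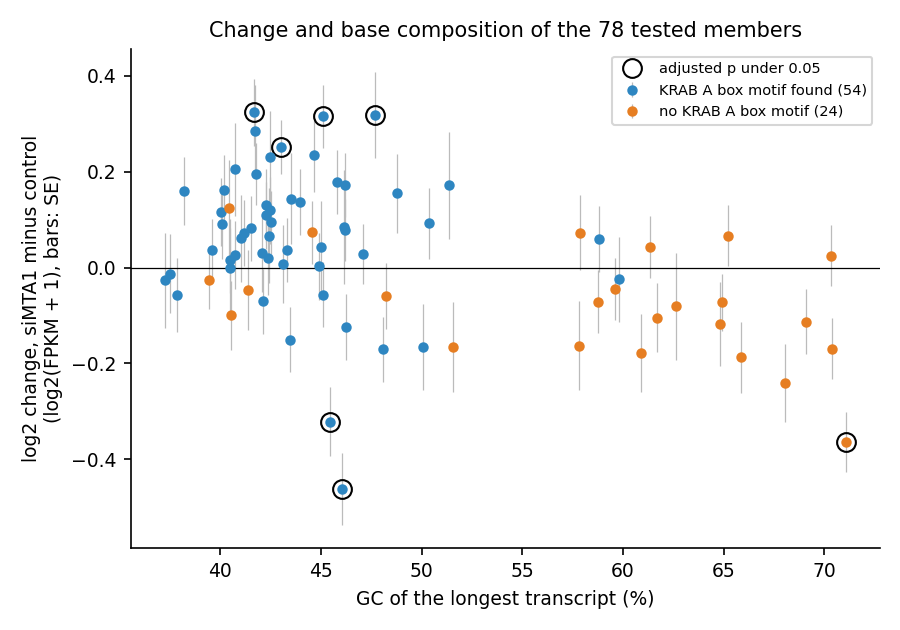
Log2 difference, siMTA1 minus control, of each of the 78 tested members (y axis, bars are SE) against the GC content of its longest transcript in percent (x axis), coloured by whether a KRAB A box was found. Members with the A box (54) cluster at low GC and mostly above 0, those without it (24) spread to high GC and mostly below 0; rings mark the 7 called members.

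Along the chromosome the members fell into 16 clusters, taken as runs with at most 1 Mb between successive gene starts. The cluster from ZNF101 to ZNF254, next to the centromere at chr19:19668796-24129961, had the lowest median level and the lowest share tested of those with 10 or more members. Of its 30 members 17 had a mean under 0.1 FPKM and 2 were tested, and the median of the mean level was 0.00917 FPKM. The cluster from ZNF565 to ZNF573 (chr19:36182060-37817300) had a larger share of quiet members, with 16 of 24 under 0.1 FPKM, a median of 0.0242 FPKM and 3 tested, although it holds ZNF146 and ZNF607. In the cluster from ZNF557 to ZNF846 (chr19:7069444-9793180), by contrast, 2 of 14 members were under 0.1 FPKM and 9 were tested.

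**Figure D3:**
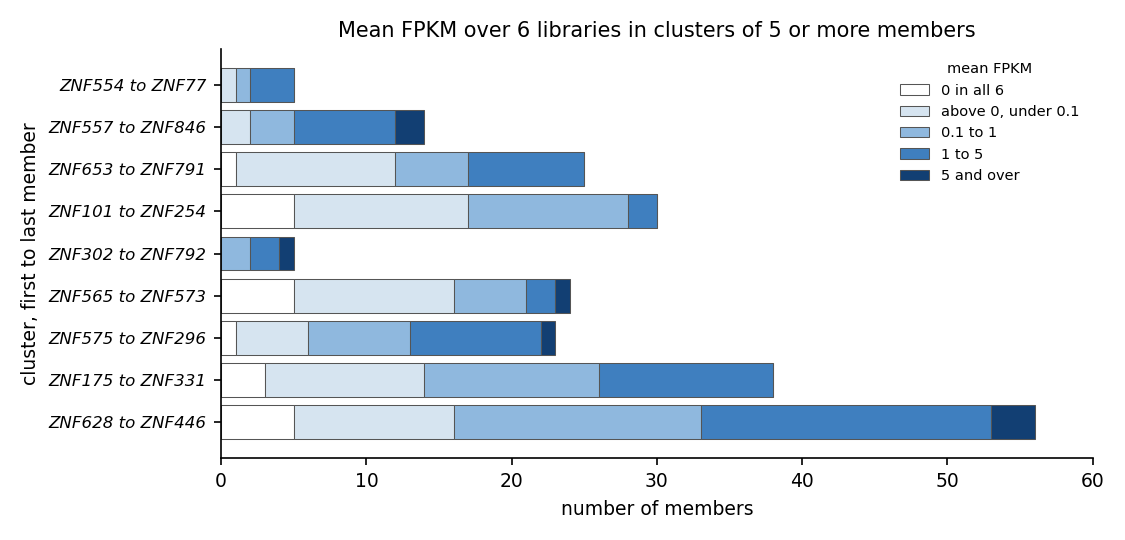
Number of members (x axis) in each physical cluster of 5 or more members (y axis, named by its first and last member, in chromosomal order from top to bottom), shaded by the mean FPKM over the 6 libraries. The clusters ZNF101 to ZNF254 and ZNF565 to ZNF573 consist mostly of members under 0.1 FPKM.

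At the end of the long arm the median lay below 0. The cluster from ZNF628 to ZNF446 (chr19:55476332-58481230), the largest with 56 members, had 23 tested members with a median log2 difference of −0.07, and 9 of the 23 lay above 0. Both are close to all tested genes, whose median was −0.05, with 4645 of 12141 above 0. It held 4 of the 7 calls, ZNF211 higher and ZNF552, ZNF865 and ZNF587B lower, and its 17.4% called is near the 18.2% of all tested genes. The neighbouring cluster from ZNF175 to ZNF331 (chr19:51571298-53580269) had 12 tested of 38 members, a median of 0.07 and 11 of 12 above 0, with ZNF160 called higher. The cluster from ZNF557 to ZNF846 had a median of 0.12 over 9 tested members, with ZNF558 called higher, and the cluster from ZNF653 to ZNF791 (chr19:11483427-12640098) a median of 0.08 over 8, with 7 above 0. With a gap of 0.5 Mb the long-arm cluster split, into 9 tested members from ZNF628 to ZNF835 with a median of −0.12 and a median GC of 64.9%, and 14 from ZNF264 to ZNF446 with a median of 0.01 and a median GC of 46.2%. None of the first 9 had a KRAB A box, against 13 of the 14. These medians are descriptions, and differences between clusters were not tested.

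**Figure D4:**
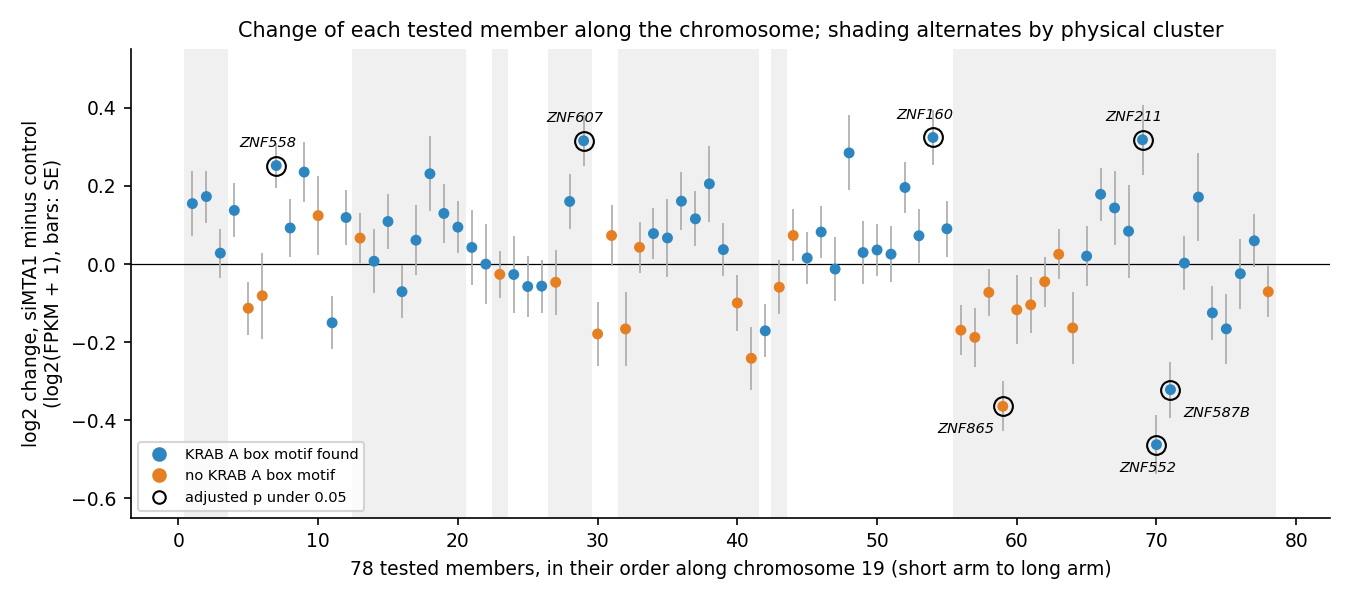
Log2 difference, siMTA1 minus control, of the 78 tested members (y axis, bars are SE) in their order along chromosome 19 (x axis, rank and not distance), with shading that alternates by physical cluster and colour for the KRAB A box. A run of members without the A box near the start of the last cluster lies below 0, and 4 of the 7 ringed calls lie in that cluster.

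Below the minimum of the main test, the members leaned towards higher levels with siMTA1. Of the 66 members with a mean from 0.1 to 1 FPKM, 20 were higher in all 3 siMTA1 libraries than in any control library (30.3%) and 4 were lower in all 3 (6.06%). Of all 6141 genes in that range, 8.96% were higher and 9.01% lower without overlap. Of the 46 ZNF genes on other chromosomes in that range 17.4% were higher and 8.70% lower, between the members and all genes in the share higher. The range was set on the mean of all 6 libraries, for members and all other genes alike. ZNF461, ZNF846 and ZNF85, for example, had control means of 0.0733, 0.0733 and 0.0767 FPKM. They entered the range only through the siMTA1 libraries, and ZNF461 is among the 20 counted as higher. On log2(FPKM + 0.1), the median difference was 0.17 over these 66 members, 0.04 over 46 ZNF genes elsewhere, 0.02 over 178 other coding genes of chromosome 19 and −0.01 over all 6141 genes. The members' median lay between 0.15 and 0.20 when each library was left out and at 0.21 to 0.22 under TPM, upper-quartile and median scaling. Among the 78 tested members 14 were higher and 7 lower without overlap, against 13.2% higher and 25.9% lower of all tested genes.

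The summed FPKM of these 66 members was 36.25, 34.62 and 33.68 in the siMTA1 libraries, against 30.02, 30.58 and 30.34 in the control libraries. Every siMTA1 sum exceeded every control sum, and the means were 34.85 ± 1.3 and 30.3 ± 0.281 FPKM (SD, n = 3 each). A KRAB A box was found in 58 of the 66, and in 18 of the 20 that were higher without overlap. Among the tested members it was found in 13 of the 14 that were higher and 3 of the 7 that were lower without overlap. Their median GC was 41.9%, against 48.7% over all genes in that range, and the part of GC was not tested. Implied fragments behind a single value ran from 6.65 to 650, with a median of 142, so single genes were measured with wide counting error. In the cluster next to the centromere, 5 of the 11 members in this range were higher without overlap, as were 6 of 12 in the cluster from ZNF175 to ZNF331. In the cluster at the end of the long arm 5 of 17 were higher, and it held 3 of the 4 that were lower. Beside these counts stand 30.3% higher and 6.06% lower over the 66 members. Over all 6141 genes in this range the shares were 8.96% and 9.01%. Differences between clusters were not tested.

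A limma fit over the 18282 genes averaging 0.1 FPKM or more, with a pseudocount of 0.1, was chosen after the data had been seen. It called 9.65% of those genes. Of the 66 members it called 2, ZNF136 and ZNF708, both higher, where 1.6% of all genes in that range were called higher and 1.21% lower. ZNF136, a KRAB member, had 0.61, 0.55 and 0.47 FPKM with siMTA1, against 0.2, 0.19 and 0.33 FPKM in control. Its lowest siMTA1 value stood above its highest control value, and the log2 difference was 0.94 (SE 0.22, limma adjusted p = 0.0361). ZNF708, a KRAB member of the cluster next to the centromere, had 0.64, 0.59 and 0.69 FPKM with siMTA1, against 0.36, 0.42 and 0.36 FPKM in control. The groups were again apart, with a log2 difference of 0.62 (SE 0.16, limma adjusted p = 0.0437).

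**Figure D5:**
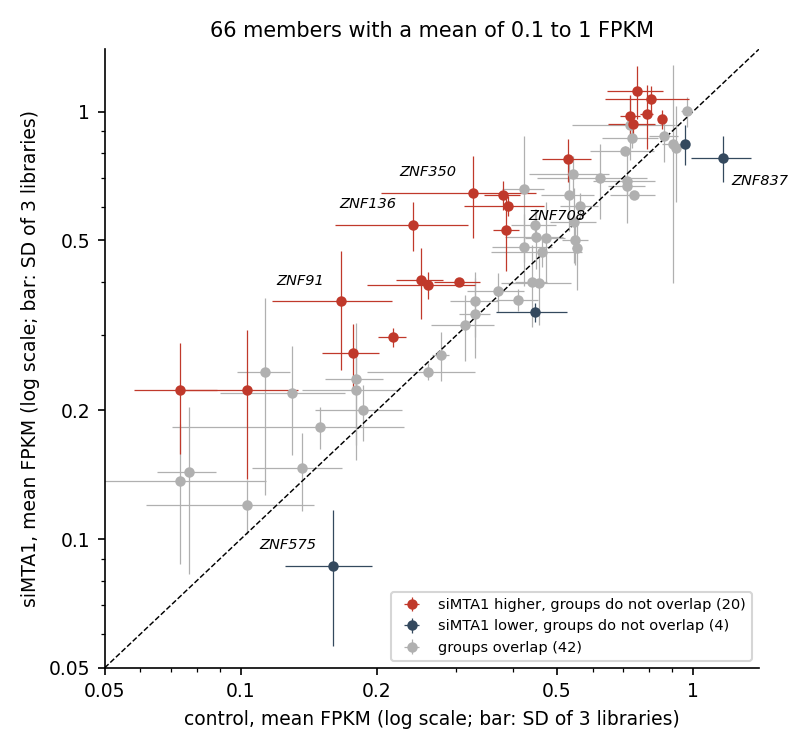
Mean FPKM with siMTA1 (y axis, log scale) against mean FPKM in control (x axis, log scale) for the 66 members with a mean from 0.1 to 1 FPKM; bars are the SD of 3 libraries and the dashed line marks equal levels. Red points (20) are higher, and dark blue points (4) lower, in all siMTA1 libraries than in all control libraries.

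The other members whose groups did not overlap in this range included ZNF461, with 0.16, 0.29 and 0.22 FPKM with siMTA1 and 0.06, 0.07 and 0.09 FPKM in control. ZNF461 had a control mean of 0.0733 FPKM and met the minimum of 0.1 FPKM only through the siMTA1 libraries. ZNF112 had 1.17, 1.25 and 0.94 FPKM with siMTA1 and 0.73, 0.87 and 0.66 FPKM in control. In the opposite direction, ZNF837, which has no recognisable A box, had 0.77, 0.88 and 0.69 FPKM with siMTA1 and 1.07, 1.06 and 1.37 FPKM in control. These 3 did not pass that fit (limma adjusted p of 0.0959, 0.0712 and 0.0610) and were chosen after their values were seen. The remaining members that were lower without overlap were ZNF575, ZNF460 and ZNF543. Fragments of a few of these genes may be shared, since 30.3% of the 75-base stretches of ZNF417 and 16.5% of those of ZNF808 recur in another gene.

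The 5 members listed as binders of transposable elements were each below 1 FPKM. The list covers only part of such binders. ZNF91, known to silence SVA elements, had 0.46, 0.38 and 0.24 FPKM with siMTA1, against 0.2, 0.11 and 0.19 FPKM in control. Its groups did not overlap, and the fit with the lower minimum gave a log2 difference of 0.77 (SE 0.28, limma adjusted p = 0.117). ZNF611, another SVA binder, had 0.4 FPKM in each of the 3 siMTA1 libraries and 0.27, 0.3 and 0.34 FPKM in control, with a log2 difference of 0.31 (SE 0.18, limma adjusted p = 0.306). ZNF649 ranged from 0.34 to 0.42 FPKM with siMTA1 and from 0.33 to 0.43 FPKM in control, and ZNF765 from 0.29 to 0.41 FPKM and from 0.29 to 0.37 FPKM, both with overlapping groups. ZNF93, which silences LINE-1 elements, did not exceed 0.01 FPKM in any library.

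Of the members linked to p53, DNA damage or NF-kB signalling, ZNF350 encodes a partner of BRCA1 that represses GADD45A. It had 0.81, 0.56 and 0.57 FPKM with siMTA1, against 0.3, 0.46 and 0.22 FPKM in control. The groups did not overlap, and in the same fit the log2 difference was 0.83 (SE 0.25, limma adjusted p = 0.0714). ZNF675, which dampens TRAF6 signalling, had 0.41, 0.36 and 0.41 FPKM with siMTA1, against 0.31, 0.29 and 0.18 FPKM in control, also without overlap (log2 difference 0.47 in that fit, SE 0.22, limma adjusted p = 0.209). ZNF420, a repressor of p53 activity, ranged from 0.01 to 0.03 FPKM in both groups.

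Members often silenced by promoter methylation in tumours were at or near 0 with and without siMTA1. ZNF382 and ZNF132 were listed at 0 in all 6 libraries. ZNF671 and ZNF331 were at 0.01 FPKM in siMTA1 library 2 and listed at 0 in the others. ZNF154 had 0.02, 0.02 and 0 FPKM with siMTA1 and 0, 0.01 and 0 FPKM in control. ZNF582 and ZNF177 were not analysed here. In these 5 genes a difference was not detectable at this depth.

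The members with roles in RNA processing or gene-end binding, and those with a SCAN domain, were tested and did not pass. ZNF473, a factor in the cleavage of histone transcripts, had 3, 2.74 and 2.86 FPKM with siMTA1 and 2.93, 3.33 and 2.84 FPKM in control (log2 difference −0.06, SE 0.07, limma adjusted p = 0.573). ZNF274, which recruits SETDB1 to the ends of zinc finger genes, had 2.45, 1.88 and 1.58 FPKM with siMTA1 and 1.93, 1.49 and 1.46 FPKM in control. Its groups overlapped, and its log2 difference was 0.17 (SE 0.11, limma adjusted p = 0.305). ZNF444 had 4.46, 4.03 and 3.76 FPKM with siMTA1 and 4.02, 4.71 and 5.41 FPKM in control, and ZNF446 had 1.27, 1.33 and 1.31 FPKM with siMTA1 and 1.4, 1.49 and 1.37 FPKM in control. In ZNF446 every siMTA1 value lay below every control value, but neither gene passed (limma adjusted p = 0.239 and 0.471).

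The corepressors that KRAB domains recruit had higher levels than the zinc finger genes themselves, with a median of 19.9 FPKM over the genes against 0.42 FPKM. Of 22 genes of this machinery, all tested, 2 rose, and 0 fell by limma, with 6 higher and 1 lower at an unadjusted p under 0.05. The 9.09% called lies below the 18.2% of all tested genes. UHRF1, which helps maintain DNA methylation, had 17.83, 18.9 and 19.23 FPKM with siMTA1, against 12.94, 14.12 and 13.72 FPKM in control. The groups were far apart, with a log2 difference of 0.43 (SE 0.06, limma adjusted p = 0.00202). CBX1, an HP1 protein, had 81.05, 82.95 and 81.25 FPKM with siMTA1, against 68.31, 71.07 and 65.95 FPKM in control, also without overlap (log2 difference 0.25, SE 0.05, limma adjusted p = 0.0123).

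TRIM28, the scaffold of the complex, had 97.05, 94.51 and 103.8 FPKM with siMTA1 and 94.38, 106 and 107.5 FPKM in control, with overlapping groups (log2 difference −0.06, SE 0.07, limma adjusted p = 0.567). SETDB1 had 6.49, 6.68 and 6.81 FPKM with siMTA1 and 5.99, 6.22 and 6.16 FPKM in control. Its groups did not overlap but it did not pass (log2 difference 0.10, SE 0.06, limma adjusted p = 0.207). The median log2 difference of the 22 genes was 0.04, against −0.05 over all tested genes. Of 11 further zinc finger genes of chromosome 19 with ZFP, ZSCAN, ZBTB, ZIM or PEG symbols, 3 were tested and ZBTB45 passed. ZBTB45 fell, with 1.84, 1.99 and 1.97 FPKM with siMTA1 against 2.47, 2.6 and 2.51 FPKM in control. Its log2 difference was −0.27 (SE 0.06, limma adjusted p = 0.019). Of all tested genes 18.2% passed, 12.1% lower, and 3 genes are too few to set against that share.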

How the data were processed

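Polyadenylated RNA of HCT116 cells was sequenced as directional paired-end libraries, per the labels' protocols, in 3 siMTA1 and 3 control samples. The authors deposited FPKM per gene, printed to 2 decimals. The submitters' processing notes name cutadapt, TopHat2, edgeR and GRCh38, with no role. The counting of fragments, its use of strand and the gene lengths are not given in the sources used, so genes with overlapping, antisense or near-identical partners are uncertain.

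Genes averaging 1 FPKM or more were tested with limma 3.58.1 in R 4.3.3 on log2(FPKM + 1), with an intensity trend, two-sided and without covariates. P-values were adjusted over all 12141 genes by Benjamini and Hochberg, with a threshold of 0.05. A log2 difference is siMTA1 minus control on that scale, which understates the change of low genes. The table held no counts, so the planned count test was not used.

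FPKM carry no depth, so depth was inferred from genes shorter than 150 bases, taking the depth at which most of their lowest values equalled 1 fragment within 0.04. Between 95.2% and 97.0% of their low values came out whole, within 0.05 beyond rounding. Implied fragments rest on GENCODE 29 lengths and cover counting error only.

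Positions, exon lengths, GC and proteins came from GENCODE 29 on GRCh38, in which all 231 members were found. The A box and fingers were found by pattern in translated coding sequences, because no RefSeq protein table was at hand. Shared 75-base stretches were counted over all GENCODE transcripts. Upstream sequences are those of RefSeq, printed where at most 30 bases lay in an annotated UTR. Named genes were the called members, the 6 with the highest level, all members of the role lists and the 2 members on each side of the threshold. The members, lists and tests were chosen with earlier results of these data known. Python 3.11.15, pandas 2.3.3 and matplotlib 3.10.9 were used for the rest.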

Additional observations from a re-analysis of the deposited data

How the results depend on the processing

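The counts of called members (7, with 4 higher and 3 lower) moved by more than 1.5 times under the following settings. With no filter on low values, 1 member was lower, the calls of ZNF160, ZNF211, ZNF552 and ZNF587B ended, and ZNF429, ZNF578 and ZNF432, each under 0.1 FPKM on average, were called higher (limma adjusted p of 0.00836, 0.0442 and 0.0229), which made 5 higher. ZNF429 and ZNF432 were at 0.02 and 0.01 FPKM in each siMTA1 library and listed at 0 in each control library, the last decimals of the table. With a mean of at least 5 FPKM, 8 members were left and 0 were called, 0 higher and 0 lower, with limma, and 0 had an unadjusted p under 0.05. Quantile normalization gave 7 higher, and median centring 12 called with 9 higher. Removal of a trend on length and GC gave 12 called with 8 higher. Array weights, which trust some libraries more than others, gave 21 called, 13 higher and 8 lower. Leaving out 1 library gave 4 to 8 called, 1 to 5 higher and 2 to 4 lower. The cause of these differences was not tested. The share of all tested genes called under each of these settings is not given here. A count of members therefore cannot be read as particular to them. The remaining settings kept these counts within 1.5 times.

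Whether the replicate numbers pair the samples could not be settled, and the main fit left them out. The correlations of deviations between samples of the same number were 0.331, 0.0219 and 0.219. Between samples of different numbers they ran from −0.277 to 0.0712, below the first and last of these. With the number as a block, 10 members were called, 6 higher and 4 lower. The median log2 difference of the tested members, 0.03 in the main fit, ran from −0.000988 to 0.0891 over all settings. The lowest came with a mean of at least 5 FPKM. The highest came with a minimum and pseudocount of 0.1 FPKM, a setting chosen after the data were seen. That value and those under median centring (0.0869) and quantile normalization (0.0712) exceeded 0.0695, the spread of the members' median between libraries. MTA1 was called lower under all settings. For 21 named genes, 428 values under other settings gave 398 on the same side of the threshold, 16 calls lost and 14 gained, with no called gene changing sign. Adding zinc finger genes with other symbols gave 8 calls, and a gap of 0.5 Mb gave 20 clusters. The count tests were not run because the table holds no counts. Depth and the 2 decimals of the table limit members under 0.1 FPKM.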
